A study of Arabidopsis thaliana with 8 samples.

Results

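Transcript levels were compared between arid5 mutant and wild-type (WT) Arabidopsis seedlings. The comparison takes the 2 arid5 libraries and the 2 WT libraries of 1 deposited table and uses every gene that reached 10 normalised reads in 2 or more of these 4 libraries, which leaves 20550 of the 23022 listed genes. The whole series holds 8 messenger RNA libraries, 2 from each of 4 groups. The groups are arid5(-/-), the double mutants chr11(-/-)chr17(-/-) and rlt1(-/-)rlt2(-/-), and WT. All are labelled as Col-0 seedlings, 10 days old, grown on MS plates in long days. The labels name no allele for any mutant, and whether replicate libraries were made from plants grown separately is not stated. The p-values therefore reflect just the scatter among these libraries, which may be technical.

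ISWI complexes are chromatin remodellers: an ATPase uses the energy of ATP to slide and space nucleosomes, and partner proteins steer it to its sites. In Arabidopsis the ATPases are CHR11 and CHR17, which bind DDT-domain partners such as RLT1 and RLT2. The title of the series names ARID5 as a further component, which recognises DNA and histone H3 trimethylated at lysine 4 (a mark of active genes), and ties the complex to the floral transition. ARID stands for AT-rich interaction domain, a DNA-binding fold. The comparison asks which transcripts differ when this reader subunit is mutated.

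Depth was 23137243 and 24228759 recovered reads in the arid5 libraries and 25912949 and 25831050 in the WT libraries. Values below are normalised read counts as deposited, and log2 changes are arid5 over WT on the log2(value + 10) scale with their standard error (SE, n = 2 libraries per group). A gene is called higher or lower at a limma adjusted p under 0.05. By that rule 9846 genes were called, or 47.9% of those tested. Of these, 4784 were higher in arid5 (23.3% of the genes tested) and 5062 were lower (24.6%). Changes beyond 2-fold were fewer, at 7.28% of the genes: 885 genes were higher (4.31%) and 612 were lower (2.98%). The libraries of arid5 and WT did not overlap in 74.8% of the genes, and the middle 50% of log2 changes lay between -0.27 and 0.29. The most abundant transcripts took a smaller share of the reads: the 10 genes with most WT reads took 5.42% and 5.94% of the arid5 reads, against 9.39% and 9.19% of the WT reads. In the fifth of genes with the highest mean level, 43.5% were called lower, whereas in the fifth with the lowest level the share was 10.3%. Precision differs with level (median SE 0.060 at the highest and 0.239 at the lowest level), and the share lower by over 2-fold ran the other way, at 2.68% for the highest and 4.62% for the lowest levels. The deposited scaling puts the median of all genes at 0.00, while scaling to equal library totals moves it to 0.25 and gives 9746 higher and 2680 lower calls in place of 4784 and 5062. Counts and medians of gene groups depend on this choice. The values at equal totals, or with quantile normalization, therefore stand beside them where the balance of higher and lower calls moves.

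**Figure D1:**
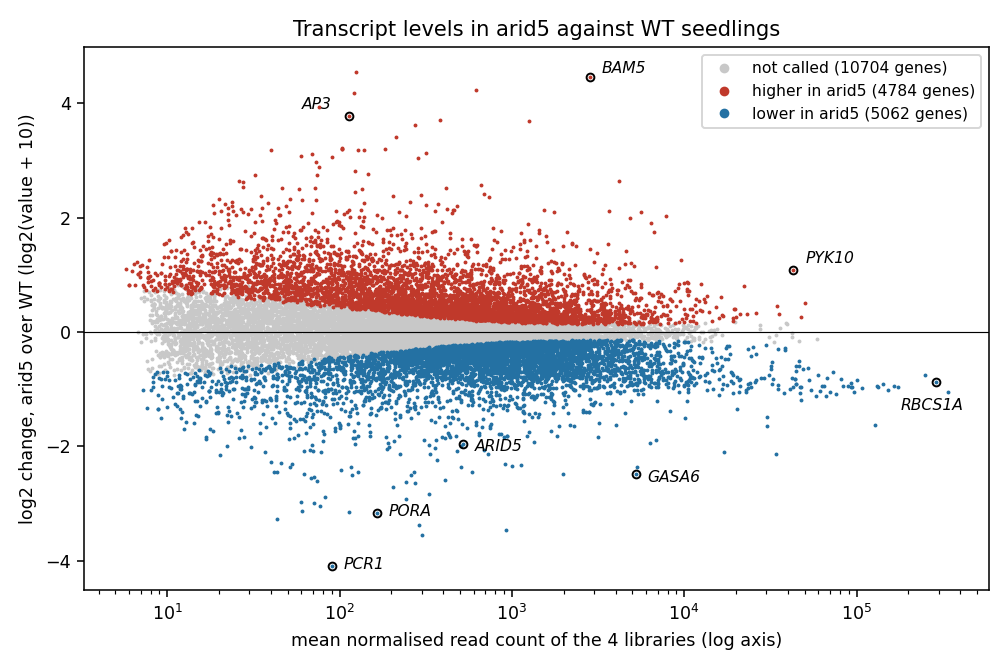
Log2 change of each tested gene (arid5 over WT, vertical axis, log2(value + 10) scale) against its mean normalised read count in the 4 libraries (horizontal log axis). Red points are the 4784 genes called higher in arid5, blue points the 5062 called lower and grey points the genes not called. The genes at the far right, such as RBCS1A, lie mostly below 0, and BAM5 has the largest of the named rises, at 4.46.

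The mutated gene itself was low. ARID5 (AT3G43240) had 213 and 206 normalised reads in arid5, against 831 and 845 in WT, a fall of 4.0-fold (log2 change -1.95 ± 0.09, adjusted p = 5.8e-08). The groups lie far apart and the libraries within each group close together. Reads are summed over the gene, so these values do not say which part of the transcript remained.

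Transcripts of 3 ISWI subunits were higher by less than 2-fold. RLT1 had 2749 and 2820 in arid5 and 1765 and 1784 in WT (0.65 ± 0.05). CHR17 had 1963 and 2049 in arid5 and 1397 and 1318 in WT (0.56 ± 0.06), and RLT2 had 2666 and 2740 in arid5 against 2070 and 1958 in WT (0.42 ± 0.06). Of the 8 listed ISWI genes 5 were called higher, with a median of 0.26. The other two calls, CHR11 at 0.15 ± 0.05 and the histone-binding MSI3 at 0.28 ± 0.10, were each lost when any 1 of the 4 libraries was left out (adjusted p of 0.070 to 0.27 for CHR11 and 0.063 to 0.18 for MSI3). RLT3 at 0.25, the DDT-domain gene DDR1 at -0.05 and the MSI-type gene FVE at -0.14 were not called, and DDR1 turned to 0.21 at equal totals.

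Among the ARID genes, 8 of 10 were tested, and 3 were lower and 1 higher, with a median of -0.20 (at equal totals 2 lower and 2 higher, median 0.057). Of these calls, that of AT1G76510 (-0.28 ± 0.09) was lost when any 1 library was left out (adjusted p of 0.056 to 0.11), at equal totals (-0.02) and by DESeq2. The call of ARID1 (0.45 ± 0.13) was lost without WT replicate 2, arid5 replicate 1 or arid5 replicate 2 (adjusted p of 0.054 to 0.060) and by DESeq2. HMGB9, which joins an ARID to a high-mobility-group box, was lower after ARID5 itself, with 524 and 523 in arid5 and 1045 and 1144 in WT (-1.05 ± 0.07, adjusted p = 8.3e-07). ARID3, at 1436 and 1418 in arid5 and 1399 and 1402 in WT, was not called (0.03 ± 0.06), although it passed the threshold at 0.29 with equal totals. The 10 genes tested on either side of ARID5 showed no common direction: 4 were higher and 3 lower. The 3 lower calls were lost at equal totals, where AT3G43230 went from -0.38 to -0.12, JAZ11 from -0.31 to -0.05 and AT3G43520 from -0.20 to 0.063. Among the higher genes, AT3G43270 went from 0.39 to 0.20 without arid5 replicate 1, and AT3G43110 from 0.53 to 0.35 without arid5 replicate 2. The largest change among the 10 neighbours was in SUS4, a sucrose synthase that cleaves sucrose in the cytosol, with 1692 and 2870 in arid5 and 1077 and 843 in WT (1.2 ± 0.18).

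The 15 largest rises hold enzymes of reserve mobilisation and nutrient recycling next to floral genes. They were taken from called genes with a symbol, a mean of at least 100 in the higher group and no overlap between the groups' libraries. BAM5, a cytosolic beta-amylase and the main extractable beta-amylase activity of leaves, had 6338 and 4540 in arid5, against 206 and 265 in WT, or 23.0-fold (4.46 ± 0.14, adjusted p = 5.2e-09). GPT2, the plastid glucose 6-phosphate translocator known to be induced by sugar, had 948 and 498 in arid5 and 43.2 and 43.8 in WT (3.71 ± 0.23, 16.6-fold). RNS1, a secreted ribonuclease known from phosphate starvation and wounding, had 469 and 213 in arid5 and 27.4 and 24.0 in WT (3.20 ± 0.28). The separation of the groups was thus set by the choice of genes, and the 2 arid5 libraries of GPT2 and RNS1 lay well apart.

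Among the other large rises, MES8, a methyl esterase, had 255 and 260 in arid5 and 18.0 and 20.8 in WT (3.19 ± 0.17). TRXH8, an h-type thioredoxin, had 1436 and 917 in arid5 and 72.3 and 36.8 in WT (4.22 ± 0.24), and NRT1.8, which retrieves nitrate from the xylem sap, had 713 and 452 in arid5 and 52.8 and 59.3 in WT (3.13 ± 0.19). MT1B, a metallothionein (a small metal-binding protein), rose by 3.41 ± 0.19 and NATA1, which acetylates ornithine in the jasmonate response, by 3.19 ± 0.23. The remaining members were UKL5, SVL3, BGAL7, the brassinosteroid-related phosphatase BSU1 and the floral organ identity genes AP3, SEP3 and SEP1, at 2.82 to 4.17. DXPS1, a gene of the deoxyxylulose phosphate synthase family chosen after its values were seen, had 84.7 and 25.7 in arid5 and no read in either WT library, which makes it at least 17.5-fold higher against a floor of 3 reads per library.

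**Figure D2:**
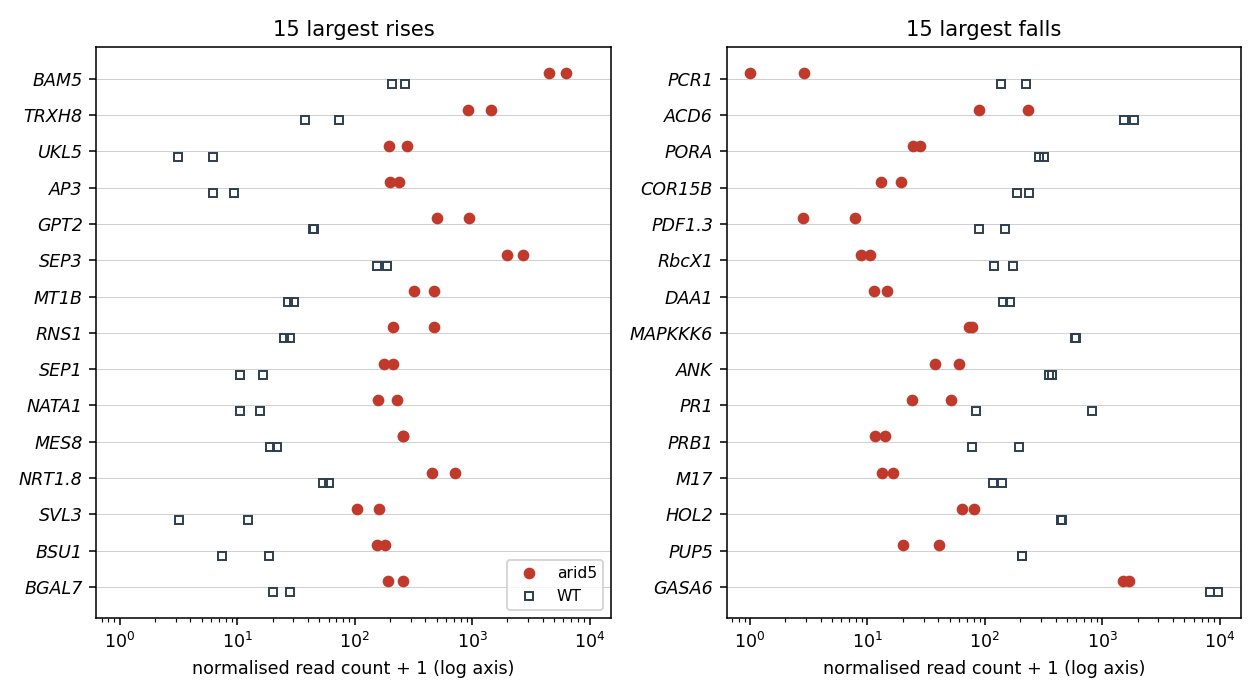
Normalised read counts plus 1 (log axis) of the 15 largest rises (left) and the 15 largest falls (right) in each library; filled circles are the 2 arid5 libraries and open squares the 2 WT libraries of a gene. Genes with overlapping groups were left out by the rule of choice, and PR1 has its 2 WT libraries furthest apart, at 821 and 82.5.

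The 15 largest falls include defence, cold-response and plastid genes. PCR1, a plasma membrane cadmium resistance protein, had 0 and 1.91 in arid5 and 224 and 136 in WT. The 2 reads in arid5 set against 343 in WT give a ratio of 188 (95% interval 51.7 to 1561, counting error only). ACD6, an ankyrin-repeat regulator of salicylic acid defence, had 87.5 and 231 in arid5 and 1520 and 1864 in WT (-3.47 ± 0.29). PORA, the light-dependent protochlorophyllide oxidoreductase of etiolated seedlings, had 27.2 and 23.4 in arid5 and 289 and 320 in WT (-3.15 ± 0.17, adjusted p = 1.6e-07).

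GASA6, a gibberellin-regulated peptide gene, was the most abundant of these, with 1499 and 1673 in arid5 and 8216 and 9597 in WT (-2.48 ± 0.08, adjusted p = 5.2e-09). MAPKKK6, a MAP kinase kinase kinase, had 72.6 and 76.2 in arid5 and 582 and 595 in WT (-2.83 ± 0.12), and HOL2, a methyltransferase, had 62.9 and 79.2 in arid5 and 449 and 446 in WT (-2.50 ± 0.14). COR15B (a cold-regulated chloroplast protein), PDF1.3 (a defensin), RbcX1 (a Rubisco assembly chaperone), DAA1, ANK, PRB1, the late-embryogenesis gene M17 and the purine permease PUP5 fell by 2.5 to 3.14. PR1, the classic salicylic acid marker, had 50.6 and 23.2 in arid5 and 821 and 82.5 in WT. Its fall of 2.63 ± 0.71 became 1.04 without WT replicate 1 and 4.21 without WT replicate 2, and was not called without arid5 replicate 2 (adjusted p = 0.086) or without the variance trend (0.13).

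**Figure D3:**
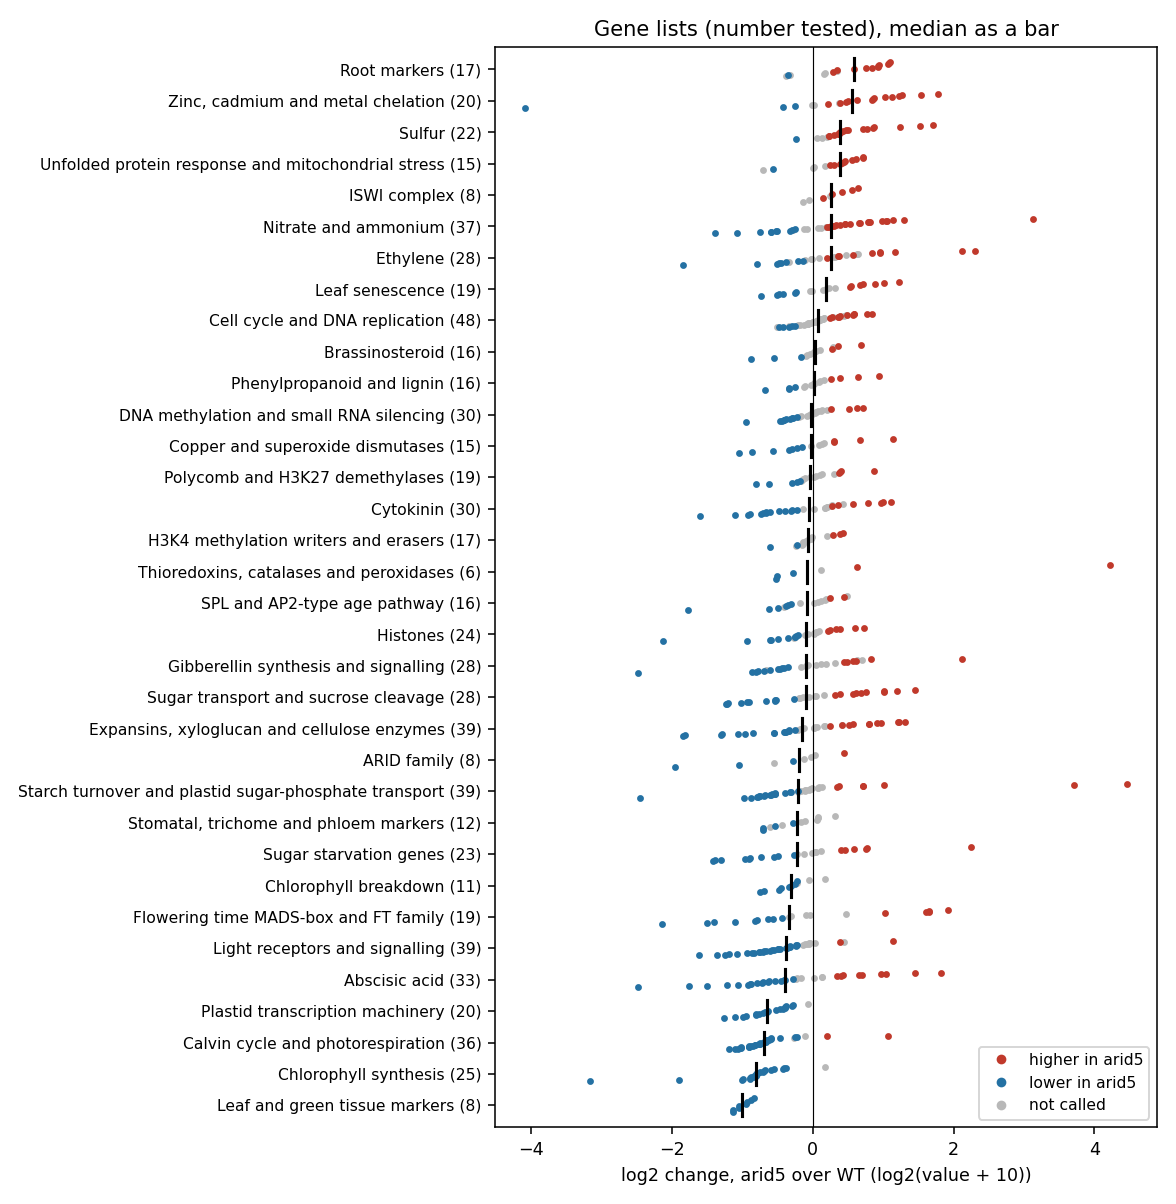
Log2 change (arid5 over WT) of every tested member of the gene lists with at least 3 tested members; the number tested stands in brackets, red is called higher, blue called lower, grey not called, and the black bar is the list's median. Root markers, at a median of 0.59, head the order, and leaf and green tissue markers, at -1.0, close it.

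Genes for making chlorophyll were lower almost throughout. Chlorophyll is built from glutamate through protoporphyrin, into which the CHL proteins insert magnesium, and the POR enzymes then reduce protochlorophyllide in light. Of 25 tested genes of this route 24 were lower and none was higher, with a median of -0.80 against 0.00 for all genes tested (-0.54 against 0.25 at equal totals). PORB, the main oxidoreductase of light-grown seedlings, had 2736 and 3076 in arid5 and 11021 and 10595 in WT (-1.89 ± 0.06, adjusted p = 8.1e-09). CRD1, which closes the fifth ring of the pigment, had 26529 and 28968 in arid5 and 55376 and 54580 in WT (-0.99 ± 0.08). HEME1 (-1.01 ± 0.06) and DVR (-0.89 ± 0.07) changed by similar amounts. HEMA2 was the member not called, at 0.17.

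The nuclear genes for chloroplast transcription were lower as well. The plastid genome is read partly by a bacterial-type polymerase whose sigma factors (SIG1 to SIG6) and associated proteins (PTACs) are encoded in the nucleus. In this group 19 of 20 tested genes were lower, with a median of -0.64. At equal totals 13 were lower (median -0.38), and with quantile normalization 18 were lower (median -0.54). SIG5, the stress- and blue-light-responsive sigma factor, had 1245 and 1175 in arid5 and 3184 and 2635 in WT (-1.25 ± 0.08). SIG4 (-1.10 ± 0.09), SIG6 (-1.0 ± 0.07), PTAC6 (-0.95 ± 0.07) and SIG1 (-0.80 ± 0.05) were lower as well, all 6 sigma factors being called. Transcripts made inside the plastids and mitochondria were not analysed here.

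Calvin cycle and photorespiration genes gave 32 lower and 2 higher of 36, with a median of -0.70 (21 lower and 4 higher with quantile normalization, median -0.32). RBCS2B, a small subunit of Rubisco, had 26253 and 32500 in arid5 and 66332 and 66335 in WT (-1.18 ± 0.10). The RBCS genes and the light-harvesting LHCB genes have near-identical copies, so reads may be split among them. AGT1, the peroxisomal alanine:glyoxylate aminotransferase of photorespiration, had 23729 and 25400 in arid5 and 51318 and 51185 in WT (-1.06 ± 0.07). TKL2, a transketolase, went the other way, with 2407 and 2168 in arid5 and 1072 and 1100 in WT (1.07 ± 0.07). Genes for chlorophyll breakdown were also lower, 8 of 11 and none higher, although at equal totals only 3 of these genes were called lower and the median moved from -0.31 to -0.04.

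Of 39 light receptor and light signalling genes, 29 were lower and 2 higher, with a median of -0.38 (18 lower and 5 higher at equal totals, median -0.12). CRY2, the blue-light receptor with a role in flowering, had 1753 and 1816 in arid5 and 4207 and 4243 in WT (-1.24 ± 0.05, adjusted p = 4.4e-08). PIF4, a phytochrome-interacting factor that promotes growth in warmth and shade, had 1359 and 1539 in arid5 and 3931 and 3519 in WT (-1.36 ± 0.07). CGA1, a GATA factor that promotes chloroplast development, had 41.5 and 58.5 in arid5 and 162 and 182 in WT (-1.62 ± 0.19). The B-box factor BBX22 was lower (-1.19 ± 0.09), while PIL1, a shade-responsive gene, was higher (1.15 ± 0.20).

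Markers of leaf and root tissue moved with these groups. All 8 leaf and green tissue markers were lower (median -1.0), and their summed level was 703132 and 783449 in arid5 and 1487570 and 1427020 in WT. With quantile normalization 4 of these 8 were lower, 1 was higher and the median was -0.15, and LHCB1.3, the most abundant transcript of the list, came to 0.00. That method gives equal ranks equal values in all libraries, so a gene that keeps its rank comes to 0.00 whatever its fall in reads. RBCS1A stands in both the leaf and the Calvin cycle list. Of 17 root markers 11 were higher and 1, SCR, was lower (median 0.59), with a summed level of 71803 and 61869 in arid5 and 32075 and 34123 in WT. Most of that sum is PYK10, a beta-glucosidase of root and hypocotyl endoplasmic reticulum bodies, with 63032 and 53867 in arid5 and 26846 and 28428 in WT (1.08 ± 0.09). The root hair genes RHD6 (1.1 ± 0.21), LRX1 (1.09 ± 0.12) and COBL9 (0.93 ± 0.18) were higher too, whereas the root stem cell gene WOX5, at 6.71 and 16.1 in arid5 and 20.0 and 14.6 in WT, was not called. These are whole seedlings, so fewer cells of a type and less RNA per cell cannot be told apart, and the part of tissue make-up in the changes of plastid, root and nutrient genes was not tested.

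**Figure D4:**
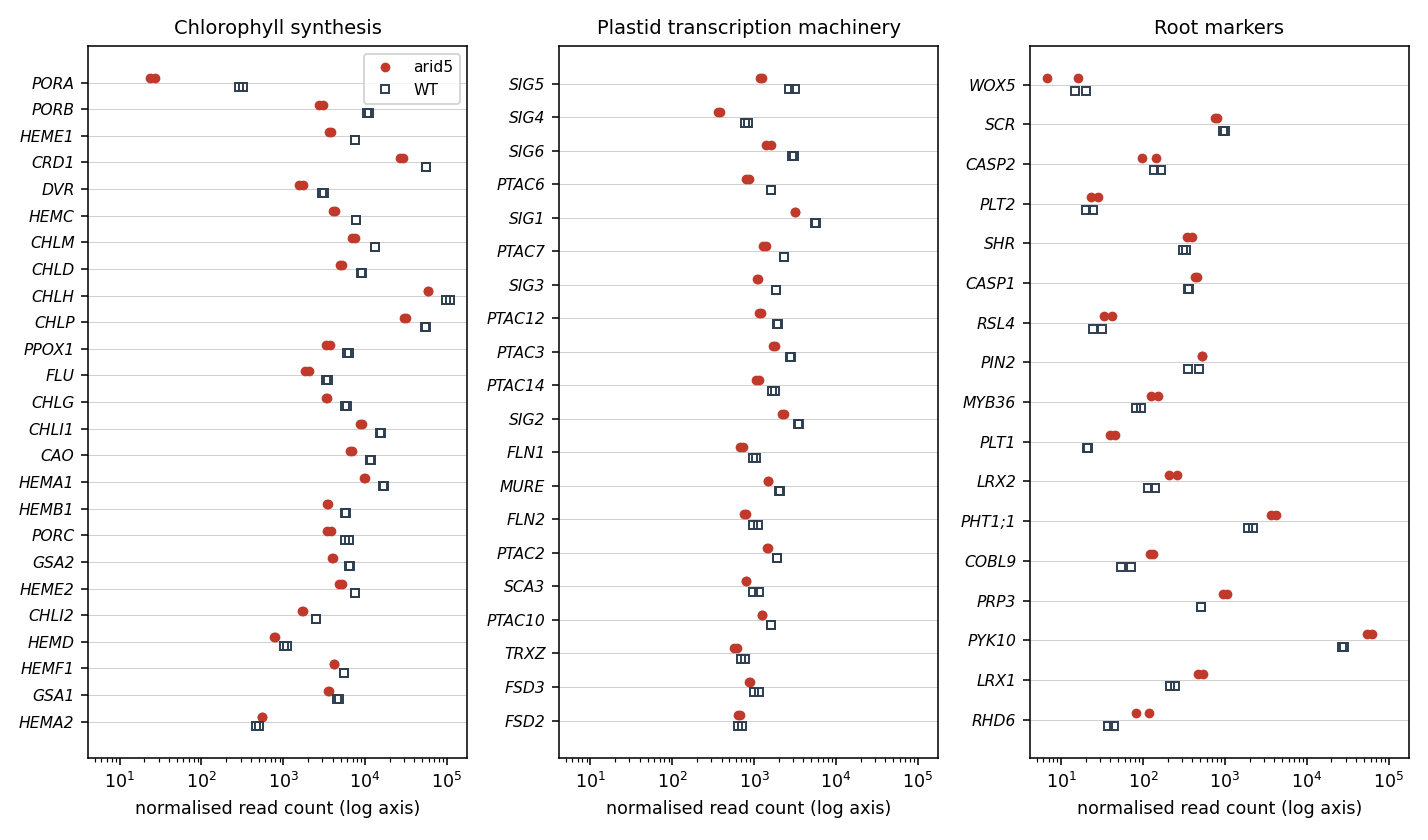
Normalised read counts (log axis) of each tested gene for chlorophyll synthesis (left), plastid transcription (middle) and root markers (right), ordered by log2 change; filled circles are the 2 arid5 libraries and open squares the 2 WT libraries. In the left panel arid5 lies left of WT in all genes but HEMA2, and in the right panel it lies right of WT in most genes, PYK10 among them.

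Promoters of changed genes were read to show which short motifs they hold. The window is the 250 bases before the annotated transcript start in RefSeq TAIR10.1, read for 20543 tested genes, and each motif was searched on both strands. The motifs were the G-box (CACGTG), the core of the abscisic acid response element (ACGTGG), the I-box (GATAAG), the sugar-repressive element (TTATCC), the evening element core (AATATCT), site II (TGGGCC), the W-box (TTGACC), the GCC-box (GCCGCC), the core of the drought response element (CCGAC), the telo-box core (AAACCCT), the heat shock element (GAANNTTC) and the phosphate-response site P1BS (GNATATNC). The G-box and ACGTGG overlap in CACGTGG, and the I-box and TTATCC overlap in GGATAAG, so their shares are not independent. The G-box was present in 11.3% of the 612 windows of genes lower by over 2-fold, in 4.41% of the 885 windows of genes higher by over 2-fold and in 7.23% of all windows. For ACGTGG the shares were 14.1% of the lower, 8.36% of the higher and 8.90% of all windows. TTATCC stood in 19.0% of the lower, 10.4% of the higher and 12.9% of all windows, and the I-box in 17.3%, 10.4% and 12.3% of the same sets. Site II was present in 9.48% of the lower and 8.59% of the higher windows, against 16.0% of all windows. The 2-fold sets are defined by their change, so these shares are descriptions without a test. For the other 7 motifs the largest gap between a 2-fold set and all windows was that of the evening element core, at 13.6% of the lower, 11.4% of the higher and 10.1% of all windows. Median A and T content was 68.8% in the lower, 69.6% in the higher and 68.8% in all windows.

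The windows of 3 strongly lower genes and of the largest of the named rises, BAM5, show these letters in place. PORA is a gene of chlorophyll synthesis, RBCS2B of the Calvin cycle and ABF3 of abscisic acid signalling. They are single examples and need not be typical of their lists, which hold 25, 36 and 33 windows. In that order, the I-box was present in 2, 6 and 4 windows (12.3% of all windows). TTATCC was present in 6, 8 and 4 (12.9%), ACGTGG in 6, 9 and 8 (8.90%) and the G-box in 3, 7 and 7 (7.23%). No test was made of these counts. Capitals mark the G-box, ACGTGG, the I-box and TTATCC on either strand, all windows run 5′ to 3′ toward the start of the gene, and coordinates are TAIR10.1.
PORA, chr5:21992815-21993064, minus strand: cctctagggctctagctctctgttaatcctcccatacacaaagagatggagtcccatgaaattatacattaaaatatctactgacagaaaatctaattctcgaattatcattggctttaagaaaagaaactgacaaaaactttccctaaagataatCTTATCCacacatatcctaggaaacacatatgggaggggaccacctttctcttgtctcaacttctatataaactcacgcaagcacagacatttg
RBCS2B, chr5:15382072-15382321, minus strand: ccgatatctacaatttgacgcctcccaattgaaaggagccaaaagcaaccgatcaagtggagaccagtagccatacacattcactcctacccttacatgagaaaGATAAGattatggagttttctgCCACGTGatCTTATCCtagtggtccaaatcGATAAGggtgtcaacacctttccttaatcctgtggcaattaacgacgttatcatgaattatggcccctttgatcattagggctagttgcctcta
ABF3, chr4:16295084-16295333, plus strand: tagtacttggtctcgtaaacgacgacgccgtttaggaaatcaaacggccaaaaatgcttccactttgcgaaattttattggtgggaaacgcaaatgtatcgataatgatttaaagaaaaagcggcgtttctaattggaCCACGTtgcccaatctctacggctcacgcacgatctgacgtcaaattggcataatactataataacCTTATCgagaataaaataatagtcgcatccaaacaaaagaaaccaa
BAM5, chr4:8669527-8669776, minus strand: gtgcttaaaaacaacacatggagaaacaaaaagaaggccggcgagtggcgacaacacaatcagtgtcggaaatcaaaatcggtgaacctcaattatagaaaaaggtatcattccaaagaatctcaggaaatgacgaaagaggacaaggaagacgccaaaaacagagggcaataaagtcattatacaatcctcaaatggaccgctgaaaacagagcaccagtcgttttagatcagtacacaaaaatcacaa
The RBCS2B window holds all 4 of these motifs between 146 and 89 bases before the start, and CCACGTG there holds both the G-box and ACGTGG read on the other strand. The BAM5 window holds none of the 4. No other annotated gene lies in any of these windows, and the letters say nothing about which factor binds there.

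Starch and sugar genes moved both ways. Of 39 genes for starch turnover and plastid sugar-phosphate transport, 19 were lower and 7 higher, with a median of -0.20. At equal totals 14 were lower and 15 higher (median 0.058), and with quantile normalization 17 were lower and 10 higher. Enzymes of synthesis and of breakdown were both among the lower genes: SEX1, the glucan water dikinase that starts starch breakdown, had 2795 and 2515 in arid5 and 5492 and 4927 in WT (-0.97 ± 0.07). The higher genes include, beside BAM5 and GPT2, APL3, a sugar-inducible large subunit of ADP-glucose pyrophosphorylase, with 1722 and 1695 in arid5 and 905 and 789 in WT (1.01 ± 0.07). BAM6, another beta-amylase, was lower, with 8.75 and 4.64 in arid5 and 79.1 and 81.2 in WT (-2.44 ± 0.23).

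Sugar transport and sucrose cleavage gave 10 higher and 11 lower of 28, with a median of -0.10 (14 higher and 9 lower at equal totals, median 0.14). SUC1, a sucrose-proton symporter, had 4237 and 4117 in arid5 and 1551 and 1477 in WT (1.46 ± 0.06, adjusted p = 2.2e-08). STP1, a hexose-proton symporter, had 1023 and 1076 in arid5 and 2345 and 2514 in WT (-1.20 ± 0.06), and the sugar exporters SWEET12 and SWEET4 both had a log2 change of -1.22. Of 23 genes known to be induced by sugar starvation, 10 were lower and 6 higher, with a median of -0.23 (9 lower and 10 higher at equal totals, median 0.0062). DIN1 had 630 and 651 in arid5 and 1722 and 1723 in WT (-1.41 ± 0.06), and the transcription factor bZIP1 (-1.38 ± 0.13) and the asparagine synthetase ASN1 (-1.30 ± 0.13) were lower with it. DIN2, a beta-glucosidase, was higher, with 190 and 273 in arid5 and 22.6 and 67.3 in WT (2.25 ± 0.32, or 1.62 without WT replicate 1 and 2.87 without WT replicate 2).

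Abscisic acid genes were lower more often than higher, 18 against 9 of 33 tested, with a median of -0.39 (13 lower and 11 higher at equal totals, median -0.14 against 0.25 for all genes). Abscisic acid binds PYL receptors, which hold back PP2C phosphatases and so free kinases to activate ABF transcription factors. NCED3, the rate-limiting enzyme of its synthesis in drought, had 119 and 142 in arid5 and 438 and 343 in WT (-1.50 ± 0.15). At the receptor step, PYL6 had 315 and 331 in arid5 and 84.3 and 84.4 in WT (1.82 ± 0.13), and PYL5 was higher by 1.45 ± 0.11. ABF3 had 585 and 602 in arid5 and 3415 and 3293 in WT (-2.48 ± 0.06, adjusted p = 1.1e-09), and the phosphatase HAI2 was lower by a log2 change of -1.76 ± 0.30.

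Gibberellin genes gave 6 higher and 11 lower of 28, with a median of -0.09 (12 higher and 7 lower at equal totals, median 0.11). The responsive peptide genes stood at both ends. GASA1 had 7078 and 4890 in arid5 and 1195 and 1527 in WT (2.11 ± 0.14), opposite to GASA6. The biosynthetic oxidase KAO2 (-0.86 ± 0.07) and the receptor GID1C (-0.80 ± 0.08) were lower. Among 30 cytokinin genes 7 were higher and 14 lower, with a median of -0.06 (11 higher and 8 lower at equal totals, median 0.20). The type-A response regulators ARR15, with 21.3 and 19.7 in arid5 and 71.9 and 93.6 in WT (-1.59 ± 0.21), and ARR7 (-1.10 ± 0.13) fell, while the cytokinin oxidase CKX1 (1.11 ± 0.15) and the biosynthetic gene IPT3 (0.97 ± 0.12) rose.

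Ethylene genes gave 10 higher and 8 lower of 28, with a median of 0.25 (17 higher and 5 lower at equal totals). ACS7, which makes the ethylene precursor, had 129 and 127 in arid5 and 16.9 and 18.7 in WT (2.31 ± 0.19). ORA59, which joins ethylene and jasmonate signals at defensin genes, had 143 and 175 in arid5 and 19.2 and 41.5 in WT (2.12 ± 0.25). The defensin gene PDF1.2A, a known target of ORA59, had 1.94 and 0.922 in arid5 and 22.4 and 41.5 in WT (-1.84 ± 0.29). Brassinosteroid genes gave 3 in each direction of 16 (9 higher and 2 lower at equal totals, 3 higher and 2 lower with quantile normalization), among them the biosynthetic P450 CPD, which was lower (-0.88 ± 0.06), and ROT3, which was higher (0.69 ± 0.07).

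Genes of sulfur, zinc and nitrate supply were mostly higher. In the sulfur list 18 of 22 were higher and 1, the regulator SLIM1, was lower, with a median of 0.39. SDI1, a marker of sulfur deficiency that represses glucosinolate synthesis, had 1185 and 2184 in arid5 and 494 and 614 in WT (1.53 ± 0.21), and BGLU28, a beta-glucosidase of the same response, had 204 and 426 in arid5 and 86.4 and 81.3 in WT (1.7 ± 0.26). LSU4 (1.24 ± 0.20) was higher as well. The second arid5 library was the higher one in SDI1 and BGLU28, and without it the change of LSU1, another deficiency marker at 0.87 ± 0.20, was 0.42.

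In the zinc, cadmium and metal chelation list 14 of 20 were higher and 3 lower, with a median of 0.56 (15 higher and 1 lower at equal totals). NAS3, a synthase of the metal chelator nicotianamine, had 2592 and 1878 in arid5 and 722 and 560 in WT (1.78 ± 0.14). ZIP3, a root zinc transporter, had 497 and 453 in arid5 and 151 and 163 in WT (1.54 ± 0.11), and HMA2, which loads zinc into the xylem, had 1343 and 1391 in arid5 and 569 and 553 in WT (1.27 ± 0.07). PCR2 was higher (1.23 ± 0.11), whereas its neighbour in the genome and close relative PCR1 had the largest fall of the named genes. Of 37 nitrate and ammonium genes, 21 were higher and 10 lower (median 0.26). The transporters NRT1.7 (1.29 ± 0.09) and NRT2.1, with 278 and 266 in arid5 and 120 and 115 in WT (1.15 ± 0.13), were higher beside NRT1.8. The plastid glutamine synthetase GLN2, with 28658 and 31846 in arid5 and 64470 and 62743 in WT (-1.07 ± 0.08), and the BTB-TAZ protein BT1 (-1.38 ± 0.10) were lower. Among 15 copper and superoxide dismutase genes, 4 were higher and 7 lower, with a median of -0.03. The balance turned with scaling, to 8 higher and 2 lower at equal totals (median 0.23) and 6 higher and 5 lower with quantile normalization (median 0.026). CSD1, a copper/zinc superoxide dismutase, was higher (1.15 ± 0.09) and the copper importer COPT1 was lower (-1.04 ± 0.08).

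Groups of genes for chromatin marks had medians near the 0.00 of all genes tested. The share called was 29.4% for H3K4 methylation, 47.4% for Polycomb and H3K27 demethylases and 46.7% for DNA methylation and silencing. Over all genes tested it was 47.9%. Of 17 tested writers and erasers of H3K4 methylation, the mark named in the title of the series, 3 were higher and 2 lower, with a median of -0.06 (7 higher and 1 lower at equal totals, median 0.18). The methyltransferase gene ATX5 was lower (381 and 415 in arid5, 615 and 599 in WT, -0.60 ± 0.09) and ATX3 was higher (0.43 ± 0.10). Among 19 Polycomb and H3K27 demethylase genes, 4 were higher and 5 lower, with a median of -0.04 (7 higher and 1 lower at equal totals, median 0.22, and 5 higher and 3 lower with quantile normalization). The largest change was that of RING1B at 293 and 268 in arid5 and 135 and 162 in WT (0.87 ± 0.14), and the methyltransferase CLF rose by 0.41 ± 0.07. DNA methylation and small RNA silencing gave 4 higher and 10 lower of 30 (median -0.02, or 0.24 with 16 higher and 2 lower at equal totals). ROS1, the demethylase that removes methylated cytosine, had 769 and 1015 in arid5 and 1748 and 1666 in WT (-0.94 ± 0.10).

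Histone genes gave 6 higher and 10 lower of 24, with a median of -0.09. At equal totals 13 were higher and 5 lower (median 0.17), and with quantile normalization 8 were higher and 6 lower (median 0.0052). The stress-inducible linker histone H1.3 had 124 and 112 in arid5 and 585 and 514 in WT (-2.13 ± 0.12). HTR4, which encodes the replacement histone H3.3, had 2544 and 2751 in arid5 and 5088 and 4998 in WT (-0.93 ± 0.06), and HTA3, a histone H2AX gene, was higher (0.74 ± 0.11).

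Flowering-time genes moved in both directions: of 19 tested members of the FT family and the flowering-time MADS-box genes, 5 were higher and 9 lower, with a median of -0.33 (6 higher and 7 lower at equal totals). FT, the mobile flowering signal, had 85.4 and 56.1 in arid5 and 10.7 and 22.8 in WT (1.61 ± 0.28). Its relatives ATC, which represses flowering when overexpressed, and MFT, which acts in seed germination, were higher too. ATC had 760 and 580 in arid5 and 210 and 200 in WT, and MFT had 527 and 381 in arid5 and 130 and 144 in WT, both with a log2 change of 1.65. The FLC-like repressor genes MAF3 and MAF5, which lie close together on chromosome 5, changed in opposite directions. MAF3 had 79.5 and 74.2 in arid5 and 349 and 394 in WT (-2.13 ± 0.14), and MAF5 had 155 and 170 in arid5 and 40.0 and 31.3 in WT (1.92 ± 0.18). FT, ATC, MFT, MAF3 and MAF5 are the 5 largest changes of this list, so most of its lower genes are not named. Outside the rule for named genes, the MADS-box gene SOC1 lay lower, at 20.2 and 19.0 in arid5 and 46.0 and 39.4 in WT. The SOC1 values are reads scaled to a common library size (CPM). SNZ, an AP2-type repressor of flowering, had 174 and 200 in arid5 and 727 and 601 in WT (-1.77 ± 0.12).

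Primary transcripts of some microRNA genes were lower, a group that was picked out after its values were seen. Of 27 tested microRNA genes 12 were lower and 1 higher, with a median of -0.40. Over all genes tested 24.6% were lower and 23.3% higher, with a median of 0.00. Counts for this group at equal totals or with quantile normalization were not made. The lower calls of MIR857, MIR838 and MIR167b rest on 15 to 42 reads per group (limma adjusted p of 0.040 to 0.047). These reads come from the long precursors and not from the mature small RNAs, whose levels were not measured. MIR825 had 19.4 and 21.7 in arid5 and 112 and 127 in WT (-2.08 ± 0.20). MIR156c had 0 and 6.69 in arid5 and 42.0 and 25.2 in WT (-1.73 ± 0.32), and MIR156a had 16.5 and 15 in arid5 and 43.2 and 39.6 in WT (-1.0 ± 0.22). MIR162a, whose mature form targets the processing enzyme DCL1, had 20.3 and 19.7 in arid5 and 68.5 and 69.8 in WT (-1.40 ± 0.21). DCL1 itself had 1752 and 1701 in arid5 and 1433 and 1449 in WT, a change of 0.26, and any link to MIR162a was not tested. MIR156d, with 10.7 and 3.66 in arid5 and 15.7 and 8.4 in WT, overlapped between groups and was not called.

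The mature sequences are shown because MIR156a, MIR156c and MIR156d give the same small RNA, the juvenile-phase miR156, which represses SPL genes. Capitals mark the seed (bases 2 to 8 from the 5′ end). Sequences are DNA letters from RefSeq TAIR10.1.
miR156a-5p, chr2:10676534-10676553, minus strand: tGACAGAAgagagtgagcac
miR156c-5p, chr4:15415491-15415510, minus strand: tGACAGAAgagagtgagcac
miR156d-5p, chr5:3456713-3456732, minus strand: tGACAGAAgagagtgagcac
miR162a-3p, chr5:2634936-2634956, minus strand: tCGATAAAcctctgcatccag
miR825, chr2:11159774-11159794, plus strand: tTCTCAAGaaggtgcatgaac
SPL2, SPL6, SPL9, SPL10, SPL11 and SPL13A carry 1 identical site for miR156, at chr2:17589066-17589085 (plus strand) in SPL9. Of its 20 bases 19 pair with the small RNA, and the lower-case letter marks the mismatch.
miR156 site in SPL9: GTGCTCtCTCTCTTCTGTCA
Of 16 tested SPL and AP2-type genes of the age pathway, 2 were higher and 6 lower, with a median of -0.08 (6 higher and 1 lower at equal totals, median 0.17). With this site, SPL10 (-0.31) and SPL11 (-0.35) were called lower. Neither was called lower at equal totals, where SNZ was the 1 lower gene of the list. SPL2 at 0.12, SPL6 at -0.18 and SPL9 at 0.02 were not called. SPL13A, which has a near-identical copy in SPL13B, had 17.4 and 16.9 in arid5 and 34.7 and 29.2 in WT. It was called lower at -0.62, and that call was lost when any 1 library was left out (adjusted p of 0.074 to 0.19).

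Cell wall, stress and growth genes were mixed. Of 39 expansin, xyloglucan and cellulose genes, 11 were higher and 16 lower, with a median of -0.15 (17 higher and 8 lower at equal totals, median 0.11). The expansins EXPA8, with 1274 and 1457 in arid5 and 4609 and 5215 in WT (-1.84 ± 0.08), and EXPA11 (-1.82 ± 0.08) loosen walls in growing tissue and were lower. XTH23, a xyloglucan endotransglycosylase, was higher (1.31 ± 0.18). Phenylpropanoid and lignin genes gave 4 in each direction of 16 (10 higher and 1 lower at equal totals, 9 higher and 4 lower with quantile normalization), among them the alcohol dehydrogenase CAD5, which was higher (0.94 ± 0.07).

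In the unfolded protein response and mitochondrial stress list 10 of 15 were higher and 1, the alternative oxidase AOX1A, was lower (median 0.39). The endoplasmic reticulum chaperones ERDJ3B, with 2348 and 2200 in arid5 and 1362 and 1409 in WT (0.71 ± 0.06), and BIP1, with 9015 and 8342 in arid5 and 5658 and 5667 in WT (0.61 ± 0.06), were among the higher genes. The stress-inducible bZIP60 was not called at 0.01. Leaf senescence genes gave 7 higher and 6 lower of 19, with a median of 0.20. At equal totals 9 were higher and 3 lower, and with quantile normalization 5 were higher and 6 lower (median 0.048). SAG21 was higher, with 4857 and 3562 in arid5 and 1647 and 1921 in WT (1.22 ± 0.12). The senescence regulator NAP was lower (-0.74 ± 0.08). Of 6 tested thioredoxin, catalase and peroxidase genes, 2 were higher and 3 lower, with a median of -0.08 (3 higher and 2 lower at equal totals, median 0.18, and 3 higher and 1 lower with quantile normalization, median 0.19). APX1, a cytosolic ascorbate peroxidase, was higher (0.63 ± 0.06).

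Cell cycle and DNA replication genes gave 11 higher and 5 lower of 48, with a median of 0.08 (30 higher and 1 lower at equal totals). The mitotic kinase CDKB1;1 (283 and 288 in arid5, 154 and 172 in WT, 0.77 ± 0.12) and the cyclin-dependent kinase inhibitor SIM (0.84 ± 0.18) were higher. Of 12 stomatal, trichome and phloem markers 4 were lower and none higher (median -0.22, or 0.03 at equal totals), with summed levels of 2990 and 3340 in arid5 and 3922 and 3636 in WT. FAMA, which sets guard cell identity, was lower (-0.54 ± 0.09), as was the trichome and root epidermis regulator GL2 (-0.70 ± 0.14). Of 7 seed markers 1 was tested, the storage protein gene CRA1, with 22.3 and 21.6 in arid5 and 8.35 and 2.14 in WT. It was called higher (1.1 ± 0.28), and the call was lost without WT replicate 2 (0.80, adjusted p = 0.061). Of 5 anther markers 1 was tested, LAP6, which was not called (-0.12). OLEO2, FUS3, LAP5 and VGD1 stayed below 10 in each library, and the other markers of these lists were not analysed here.

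The mutants were then set against each other directly on the recovered reads of the 8 libraries, using edgeR's quasi-likelihood test. Values are CPM, the reads of a gene scaled to a common library size. Against the libraries labelled rlt1/2, few of 21371 genes differed: 78 were called (0.365%), 9 higher (0.0421%) and 69 lower (0.323%) in arid5. The count rests on single libraries, since it was 43 without arid5 replicate 1, 10 without arid5 replicate 2 and 35 without rlt1/2 replicate 2. DESeq2 called 175, and 1698 genes had an unadjusted edgeR p under 0.05. The smallest p belonged to RLT2, which had 111 and 114 in arid5, 3.27 and 2.31 in rlt1/2 and 86.1 and 81.1 in WT (5.34, adjusted p = 7.7e-09), and ARID5, the mutated gene of arid5, had 8.86 and 8.54 in arid5, 45.0 and 42.2 in rlt1/2 and 34.6 and 35.0 in WT (-2.32, adjusted p = 2.9e-07). RLT1 was still read in the libraries labelled rlt1/2, at 86.6 and 71.6, against 73.4 and 73.9 in WT.

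Most of the genes called between these mutants were lower in arid5. BAM5 had 263 and 188 CPM in arid5, 469 and 1038 in rlt1/2, and 8.55 and 11 in WT (-1.74, edgeR adjusted p = 0.042). RNS1 (-1.64, 0.048) and NATA1 (-1.42, 0.036) also lay below rlt1/2 and above WT. SAG13, a senescence-associated dehydrogenase, had 10.3 and 6.90 in arid5, 126 and 55.3 in rlt1/2 and 11.1 and 6.69 in WT (-3.39, 0.0039), and was not called between arid5 and WT. The jasmonate-regulated gene JRG21 (-2.43) and the trypsin inhibitor TI1 (-1.90) were lower too. Several root-hair extensin genes, which encode structural wall proteins, were lower together: EXT10 had 26.3 and 23.2 in arid5, 48.7 and 44.9 in rlt1/2 and 14.5 and 12.2 in WT (-0.92, 0.0039), with EXT6, EXT12, EXT13, LRX1 and PRP3 at -0.90 to -0.60. Extensin genes have repeats and close copies, so reads may be shared among them. SAG13, JRG21, TI1 and the extensins were picked after their values were seen.

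By edgeR, no chlorophyll synthesis, Calvin cycle or plastid transcription gene was called between arid5 and rlt1/2 (for plastid transcription 2 of 20 had an unadjusted p under 0.05 and DESeq2 called 0). In the chlorophyll synthesis list edgeR called 0 of 25 at the adjusted threshold, with 0 at an unadjusted p under 0.05 and 0 by DESeq2, and log2 differences between -0.13 and 0.21. For Calvin cycle genes the same counts were 0 of 36, 0 and 0, with differences between -0.13 and 0.70. Over all 21371 genes 0.365% were called, and most of the other lists held no called gene either. A count of 0 therefore does not set these lists apart. A missed threshold does not show that the levels were equal. Of the 15 largest rises of arid5 over WT, 3 were lower in arid5 than in rlt1/2 and the median difference was -0.55.

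Against the libraries labelled chr11/17 the difference was wide: 13905 genes were called (65.1%), 7030 higher (32.9%) and 6875 lower (32.2%) in arid5. Here 23 of 25 chlorophyll synthesis genes, 32 of 36 Calvin cycle genes and 8 of 8 leaf markers were higher in arid5, with medians of 0.95, 1.14 and 1.55. RBCS2B had 1091 and 1348 in arid5, 252 and 382 in chr11/17 and 2760 and 2747 in WT (1.94). Of the 15 largest rises of arid5 over WT, 10 were lower in arid5 than in chr11/17 and 2 higher. RNS1 had 19.4 and 8.89 in arid5, 414 and 307 in chr11/17 and 1.14 and 0.992 in WT (-4.68). All 16 unfolded protein response and mitochondrial stress genes were lower in arid5 than in chr11/17 (median -1.0).

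Some genes had another order. ABF3 had 24.3 and 25 in arid5, 113 and 115 in chr11/17, 31.7 and 25.4 in rlt1/2 and 142 and 136 in WT, so arid5 lay below chr11/17 (-2.22, edgeR adjusted p = 2.8e-08). FT had 3.54 and 2.34 in arid5, 0.853 and 1.25 in chr11/17, 2.61 and 3.70 in rlt1/2 and 0.438 and 0.949 in WT, and was higher in arid5 than in chr11/17 (1.48, 0.0043). CHR17 had 81.6 and 85.0 in arid5, 32.7 and 35.1 in chr11/17, 82.0 and 83.5 in rlt1/2 and 58.1 and 54.6 in WT. CHR11 was higher in the libraries labelled chr11/17, at 306 and 308, than in arid5 at 139 and 138, rlt1/2 at 145 and 137 or WT at 128 and 121, so the direction of comparisons with that group rests on its label.

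**Figure D5:**
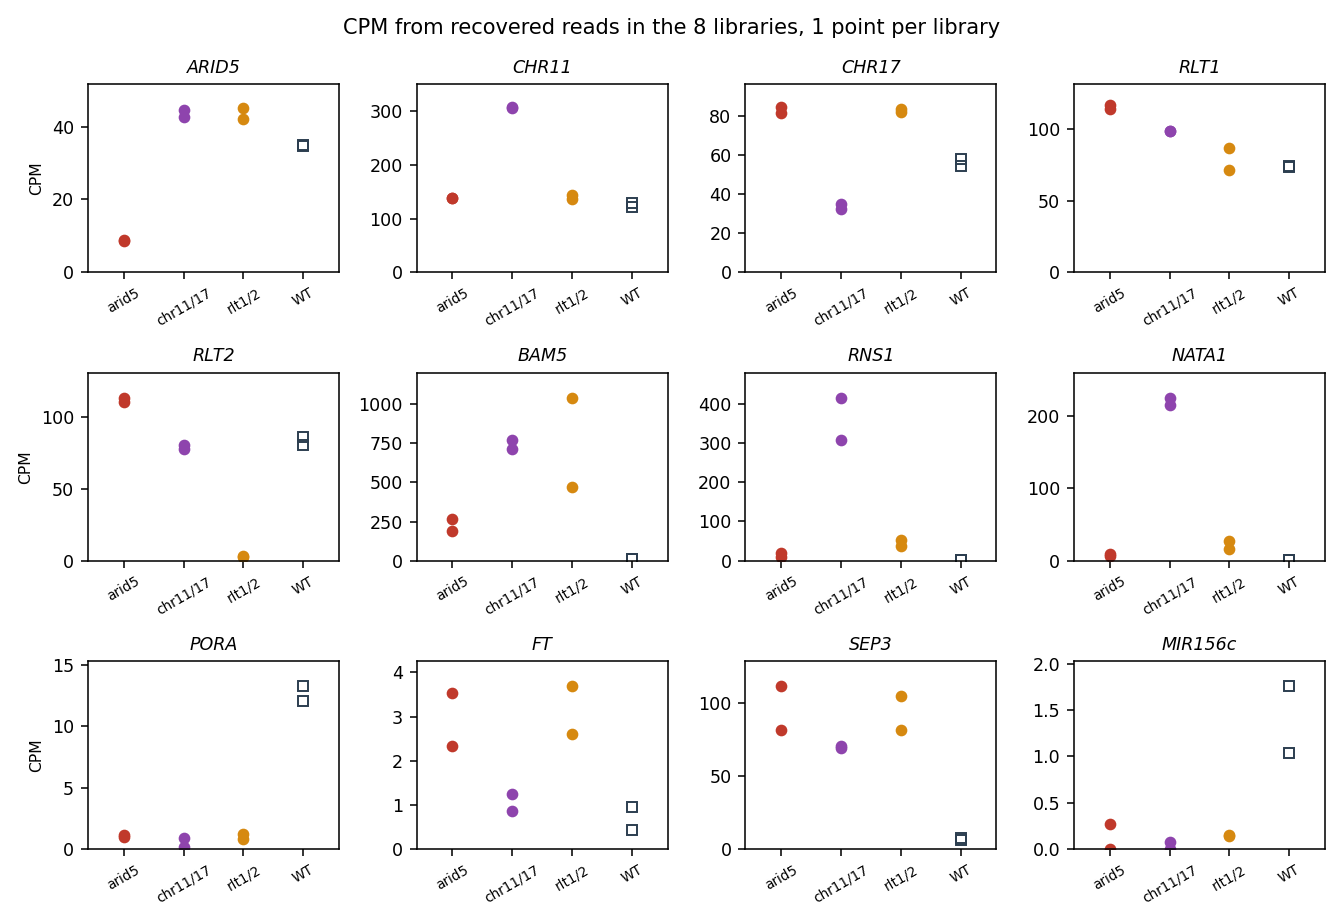
CPM (scaled recovered reads) of 12 genes in the 8 libraries, 1 point per library, grouped from left as arid5, chr11/17, rlt1/2 and WT on linear axes that start at 0. ARID5 is low in arid5, RLT2 in rlt1/2 and CHR17 in chr11/17, CHR11 is highest in chr11/17, and BAM5, RNS1 and NATA1 in arid5 lie between WT and the other two mutants.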

How the data were processed

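Messenger RNA from whole seedlings was sequenced in 8 libraries. Per the submitters' processing notes, reads were mapped to TAIR10 with HISAT2 and handled with edgeR. For versions, the counting tool and the use of strand, the sources used here give nothing. The deposited values are normalised counts (a signal per gene), in 3 tables. Reversing edgeR's quantile adjustment to a common library size gave whole reads in 100% of the values of the arid5 table (relative tolerance 1e-06).

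The comparison of arid5 with WT used limma 3.58.1 in R 4.3.3 with a variance trend on log2(value + 10), for genes at 10 or more in at least 2 libraries, with Benjamini-Hochberg adjustment and a threshold of 0.05. Fold changes on this scale understate those of low genes, and fold values in the text compare deposited-scale reads. The arid5 libraries were compared directly with the other mutants by edgeR 4.0.16 quasi-likelihood tests with TMM scaling on recovered reads of 8 libraries (10 or more reads in at least 2 libraries), because the 3 tables were normalised separately and share the WT libraries. On recovered reads, edgeR and DESeq2 1.42.0 were also run as alternatives. The scripts were tested on simulated data.

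The gene groups are 36 lists with 820 entries. Members and lists were chosen with earlier results of these data known. Named genes are the ARID and ISWI genes, 5 tested neighbours on each side of ARID5, the 15 largest rises and falls with a gene symbol, a mean of 100 or more in the higher group and separate libraries, and up to 5 called members of each other list. Genes outside that rule are pointed out in the text, and other list members are named with their values where a count left them over. Replicate numbers did not pair the libraries (the correlation of within-group differences was -0.0025 over 20550 genes). Intervals and floors of 3 reads per library cover counting error only.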

Additional observations from a re-analysis of the deposited data

How the results depend on the processing

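With 2 libraries per group, each call rests on few values. No filter on low values, a filter at 50, quantile normalization and edgeR or DESeq2 on recovered reads kept all 4 counts of higher, lower and over-2-fold genes within 1.5 times. With a pseudocount of 50, 336 genes were higher and 345 lower by over 2-fold, since a large pseudocount shrinks changes of low genes. Equal library totals gave 9746 higher, 2680 lower, 1557 higher by over 2-fold and 325 lower by over 2-fold. Leaving out 1 library gave 3524 to 4027 higher, 3986 to 4542 lower, 818 to 1028 higher by over 2-fold and 563 to 723 lower by over 2-fold. The count against rlt1/2 was 10 to 64 without 1 library and 175 by DESeq2, and the cause was not tested. The count against chr11/17 was 11744 to 12970 without 1 library. At equal totals DDR1 turned to 0.21, AT3G43220 to 0.15, AT3G43520 to 0.063 and JMJ14 to 0.043. With quantile normalization CAT3 turned from called lower to called higher, at 0.23 (limma adjusted p = 0.012). LHCB1.3 came to 0.00, a value that this method sets by rank. Of 209 named genes, 18 to 22 lost their call in an unchanged direction without 1 library, 24 under DESeq2, 14 at equal totals and 11 with quantile normalization. Beside these, AT3G43520 and JMJ14 lost theirs on turning at equal totals, and LHCB1.3 lost its call at 0.00 with quantile normalization. The median of 35 of 36 lists moved at equal totals and of 20 with quantile normalization. Replicates share only a number. With the replicate number as a block, 4832 genes were higher and 5083 lower, with 885 higher and 612 lower by over 2-fold, and 64 genes were called against rlt1/2 and 13771 against chr11/17.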

Other observations

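Some neighbouring genes moved together. Runs of at least 3 tested genes next to each other that were all called and over 2-fold in 1 direction were picked out after their values were seen, and no test was made of them. The longest run holds 6 genes on chromosome 4, BARS1, CYP705A4, AT4G15390, CYP702A5, CYP702A6 and BIA1, and was higher in arid5 by log2 changes of 1.09 to 1.67. BARS1 encodes a triterpene synthase, and the CYP genes encode cytochrome P450 enzymes. On chromosome 3, the auxin-responsive growth genes SAUR29, SAUR28, SAUR27 and SAUR26 were lower at -1.43 to -1.23, and on chromosome 5 a run with SAUR19 and SAUR20 was lower at -1.41 to -1.08. The members of these SAUR groups are close copies, so reads may be shared among them. The transporter genes ABCC3, ABCC6 and ABCC7 on chromosome 3 were higher at 1.04 to 1.17.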
